A study of Coturnix japonica with 54 samples.

Results

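The first lengthening of the day, by 2 h from the shortest photoperiod, was examined by setting 6 quail sampled at 10 h of light on the rising arm (10Lv) against 6 quail sampled at 8 h of light (8L). The birds were taken by their labelled treatment and make up 12 of 54 samples. All 54 were male Japanese quail, 6 in each of 9 groups, that began under 16 h of light and 8 h of dark and passed through 16, 14, 12, 10, 8, 10, 12, 14 and 16 h of light with 2 weeks at each step. Birds of 10Lv had thus spent 2 weeks at 10 h of light straight after 2 weeks at 8 h, and birds of 8L had spent 2 weeks at 8 h after the declining arm; the labels write a for that arm and v for the rising one. Both groups shared this photoperiod history up to 8L, and the labels name no mutation, drug, age, batch or date. Birds of 10Lv came 2 weeks later in the study than birds of 8L, so time cannot be told apart from day length. RNA of single birds, labelled as mediobasal hypothalamus, was sequenced as cDNA on Oxford Nanopore flow cells. Each bird has a number of its own in the labels, and no number is shared between groups. Replicate numbers below follow the order of the samples and pair no bird of 10Lv with one of 8L.

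In birds, long days act on the pars tuberalis, the part of the pituitary that wraps its stalk, which releases thyrotropin. Thyrotropin acts on tanycytes, glia lining the floor of the brain's central cavity, where DIO2 makes active thyroid hormone and DIO3 destroys it. The reproductive hypothalamus is then released, and the pituitary makes the gonadotropins, each a dimer of a shared alpha subunit (CGA) and its own beta subunit, such as FSHB of follicle-stimulating hormone.

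Both tables that the authors deposited for these birds were analysed apart, because they hold different profiles. The first gives CPM, that is, counts scaled to the same total in each library, and was rich in transcripts of neurons: their 15 marker genes were all detected and summed to 34949 to 54517 CPM in 10Lv and 29629 to 42137 CPM in 8L. Most of that sum was MAP2, a microtubule protein of dendrites, and the other 14 genes summed to 4167 to 5479 CPM in 10Lv and 3771 to 5207 CPM in 8L. The 11 detected markers of oligodendrocytes summed to 5358.5 to 8473 CPM in 10Lv and 4787 to 8874 CPM in 8L. The second gives estimated counts per transcript and was rich in pituitary transcripts: 9 of 12 markers of pituitary cells were detected and summed to 7722 to 52753 CPM in 10Lv and 5874 to 48283 CPM in 8L, or to 4164 to 11117 CPM in 10Lv and 2875 to 8322 CPM in 8L without POMC. Both tables carry the numbers of the same birds and the same tissue label, and the sources used here do not state which tissue gave the pituitary transcripts of the second. A level of one table is therefore not a repeat measurement of a level of the other. In the first table FSHB had 0 of 4769301 recovered reads in 10Lv and 0 of 5788248 in 8L, which allows up to 0.629 CPM in 10Lv and 0.518 CPM in 8L (3 reads over the group). PRL had 1 read in 10Lv and 2 in 8L there. The first table held 292502 to 1069313 recovered reads per library in 10Lv and 376519 to 1286214 in 8L. The second held 13209 to 56672 counts in 10Lv and 31884 to 48581 in 8L. Replicate 5 of each group stood apart in the count table, with 725 genes detected in 10Lv and 1545 in 8L, where the other 10 libraries had 2901 to 6610. In those replicates ACOT9, a thioesterase, took 46.1% of counts in 10Lv and 44.4% in 8L, against 20.2% to 36.2% in the others. Whether the reads counted for ACOT9 belong to that gene was not tested, and they are part of the total behind every CPM of the count table. By the order of the samples, replicate 5 had the fewest genes of the count table in 5 of the 9 groups, and replicate 3 the fewest recovered reads of the CPM table in 7.

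In the count table, both subunits of follicle-stimulating hormone, FSHB and the shared CGA, stood higher at 10Lv. FSHB, whose product makes the hormone specific, had 0, 1 and 6 counts as the lowest, median and highest of the 10Lv libraries, with 4 of 6 libraries above 0. It had 0 counts in 6 of 6 libraries of 8L. Over the groups these were 14 of 167492 counts in 10Lv and 0 of 247636 in 8L, where 0 counts allow up to 12.1 CPM (3 counts over the group, counting error only). The pooled level of 83.6 CPM in 10Lv was 6.90 times that limit. This ratio leaves out the counting error of the 14 counts and the spread between birds, so it is no lower bound. It was 4.51 without 10Lv replicate 4, 4.49 without 10Lv replicate 6 and 10.4 without 10Lv replicate 1. FSHB was the 1 gene of 826 tested (0.121%) that passed edgeR's quasi-likelihood F test with Benjamini-Hochberg adjustment (log2 change 5.32, SE 1.14, adjusted p = 0.0231). With 8L at 0 counts the size of this change depended on the settings of the fit, and it ran from 2.21 to 5.67 over 21 alternatives. The 2 libraries of 10Lv without a count, replicates 1 and 2, overlapped with 8L, and an exact two-sided permutation test of the mean log2 level gave p = 0.0606. The call rested on 14 counts. It was lost without 10Lv replicate 4 (adjusted p = 0.149) or 6 (0.153), which held 6 counts each, and in 11 other alternatives of 21. In a bulk sample, more cells that make a transcript and more transcript per cell cannot be told apart.

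CGA, the alpha subunit shared by the gonadotropins and thyrotropin, had a level of 2271, 2994 and 4651 CPM as the lowest, median and highest of 10Lv, against 1116, 1310 and 2070 CPM in 8L. Every 10Lv library lay above every 8L library, and no other gene of the 826 showed this (0.121%; 0 showed the opposite). The means were 3246 ± 1025 CPM in 10Lv and 1405 ± 348 CPM in 8L (SD, n = 6 each), on 509 and 340 counts. The exact two-sided permutation test gave p = 0.00216, the smallest it can give with 6 against 6. Full separation by itself fixes this p. It is also about the share of genes, over both directions, that would separate fully if the groups did not differ. The share seen among the 826 genes was no larger. CGA was the 1 of 25 genes of interest tested in the count table (4.0%) with an exact p under 0.05. Of all 826 genes 5.81% had an unadjusted edgeR p under 0.05, by another test and after a filter on counts that was not applied to the 25. In the fit across all genes the log2 change of CGA was 1.11 (SE 0.35, 95% interval 0.40 to 1.82) and the edgeR adjusted p was 0.402, so it was not called there. DESeq2 called it (adjusted p = 0.00239). In the CPM table CGA averaged 154 ± 99.2 CPM in 10Lv and 127 ± 64.9 CPM in 8L, and the groups overlapped (exact permutation p = 0.996). The median log2 change of the 826 genes was -0.27, and 292 of them were positive.

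**Figure D1:**
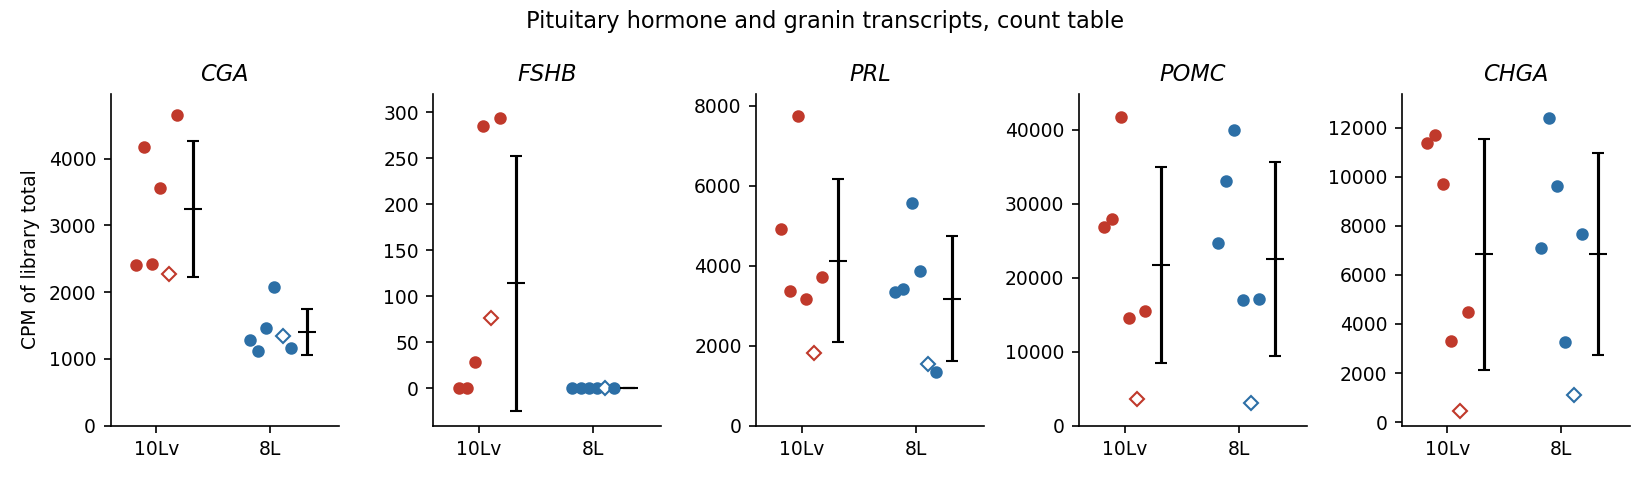
Level of 5 transcripts in the count table (CPM of the library total) for each of 6 birds of 10Lv and 6 of 8L, with the mean and SD beside the points; open diamonds are replicate 5 of each group. All CGA values of 10Lv (2271 to 4651) lie above those of 8L (1116 to 2070), FSHB is at 0 in every bird of 8L, and the other 3 transcripts overlap.

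Other hormones and secretory proteins of the pituitary overlapped between the groups. PRL, which encodes prolactin, had 1817, 3542 and 7744 CPM as the lowest, median and highest of 10Lv and 1345, 3382 and 5576 CPM in 8L (exact permutation p = 0.372). Its log2 change was 0.35 (SE 0.43, 95% interval -0.51 to 1.21). POMC, the precursor of corticotropin and melanocortins, averaged 21672 ± 13271 CPM in 10Lv and 22474 ± 13112 CPM in 8L (SD, n = 6 each; log2 change -0.09, SE 0.53). Its libraries ranked in the same order in both groups: replicates 3, 2, 1, 6, 4 and 5 from highest to lowest. Replicate 3 had 41637 CPM in 10Lv and 39961 CPM in 8L, and replicate 5 had 3558 CPM in 10Lv and 3000 CPM in 8L. Whether libraries of the same position share a preparation was not tested. TSHB, the beta subunit of thyrotropin, had 22 counts in 10Lv and 21 in 8L, which was too few to enter the fit across genes (exact permutation p = 0.935). LHB, the beta subunit of luteinising hormone, was not among the genes of the count table, so its level could not be read there. How the CGA level divides between these hormones was not tested. CHGA, a granin of secretory granules, averaged 6841 ± 4710 CPM in 10Lv and 6854 ± 4126 CPM in 8L. POU1F1, the transcription factor of prolactin, growth hormone and thyrotropin cells, was at 505 ± 266 CPM in 10Lv and 581 ± 424 CPM in 8L. The signs of the POMC, CHGA and POU1F1 changes flipped in 5, 7 and 3 of their 23 alternatives, so no direction is given for them. Of the 4 tested hormone genes, CGA and FSHB were the members below an unadjusted p of 0.05, against 48 of all 826 genes (5.81%).

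Over the neighbouring steps of the cycle, CGA averaged 1190 ± 650 CPM in 10La, 1405 ± 348 CPM in 8L, 3246 ± 1025 CPM in 10Lv and 7957 ± 3760 CPM in 12Lv (SD, n = 6 each). FSHB averaged 12.7 ± 15.2, 0, 114 ± 139 and 896 ± 523 CPM in the same groups, with a count in 3, 0, 4 and 6 of 6 libraries. PRL averaged 4581 ± 2375, 3179 ± 1573, 4124 ± 2035 and 11774 ± 5252 CPM. Whether the first lengthening differed from the next step, 12Lv minus 10Lv, was tested directly: edgeR called 0 of 826 genes (0%) and DESeq2 0, while 48 had an unadjusted edgeR p under 0.05. For CGA the log2 change was 1.11 at the first step and 1.40 at the next, and their difference was -0.29 (95% interval -1.51 to 0.93). For FSHB the difference was 2.18 (SE 1.08), on a fitted change against a group at 0. The first and next steps share the 10Lv libraries.

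The 10 h photoperiod reached by lengthening was also set against 10 h reached by shortening (10La). Birds of 10Lv also came later in the study than birds of 10La, so time cannot be told apart from the arm here either. CGA was higher in 10Lv than in 10La by 1.30 on the log2 scale (SE 0.35), which edgeR did not call (adjusted p = 0.242), and none of 826 genes was called (0%), while 41 had an unadjusted p under 0.05. DESeq2 called 1 gene, CGA. So did edgeR when each gene was given the count of its largest transcript in place of the sum (adjusted p = 0.0171), an alternative chosen after the data were seen.

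**Figure D2:**
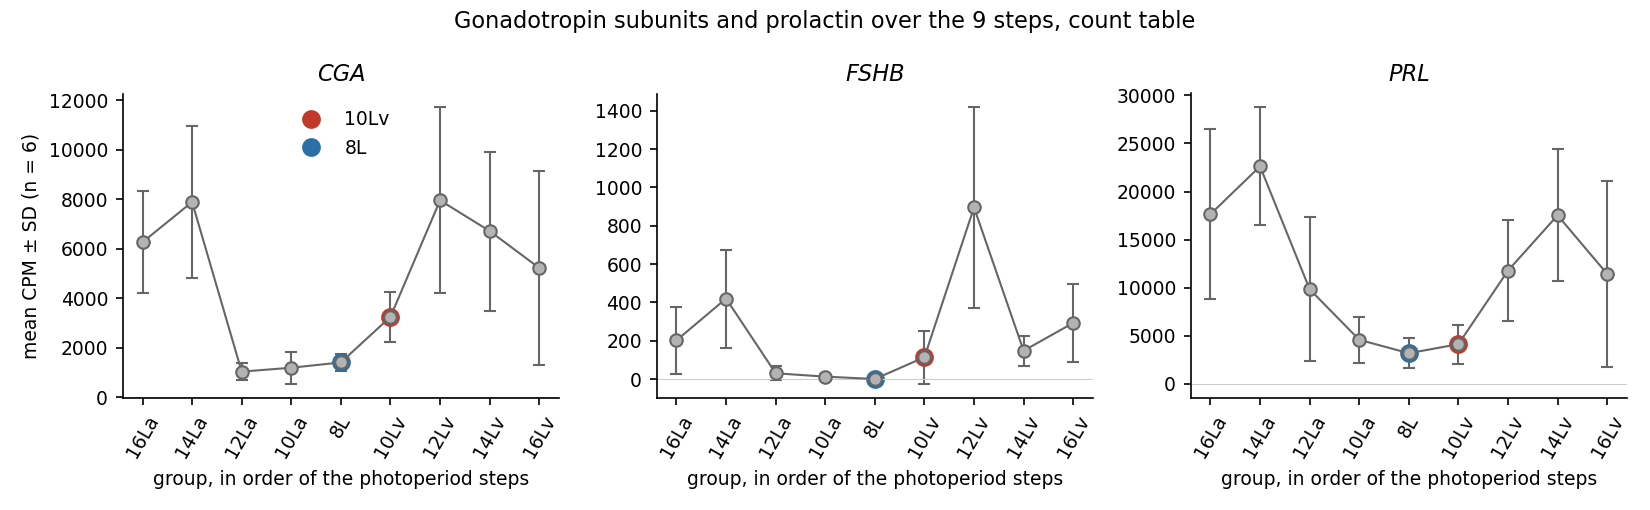
Mean level (CPM of the library total, SD as bars, n = 6) of CGA, FSHB and PRL in the count table over the 9 photoperiod groups, in the order of the steps. Larger filled points mark 10Lv in red and 8L in blue. At 10Lv, CGA (3246 CPM) lies between 8L (1405 CPM) and 12Lv (7957 CPM), FSHB averages 114 CPM in 10Lv and 0 in 8L, and PRL (4124 CPM) is within the spread of 8L (3179 CPM).

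No other gene of the count table passed. On the higher side DOCK10 had 32 counts in 1 library and 34 in all of 10Lv, and 0 in 8L (log2 change 5.40, SE 1.89; edgeR adjusted p = 0.422). KCNMA1, a calcium-activated potassium channel, had 50 of its 52 counts in 10Lv replicate 4 and 2 counts in 8L. MTSS1, INPP4A, EHBP1, SEC24D and CCDC88A followed with adjusted p from 0.453 to 0.651. On the lower side OPTN, an autophagy receptor, came nearest with 0 counts in 6 of 6 libraries of 10Lv and 0, 12 and 20 counts as the lowest, median and highest of 8L (log2 change -6.49, SE 1.56, adjusted p = 0.0617). KIF16B, a kinesin that moves endosomes, had 0 counts in 10Lv and 4 to 57 counts in 4 libraries of 8L (adjusted p = 0.141), and PICALM, a clathrin adaptor, 0 counts in 10Lv and 40 in 3 libraries of 8L. ACAP2, PLEKHA7, ZNF644, C2CD5, AGTPBP1, AURKAIP1 and GIGYF2 had adjusted p from 0.318 to 0.422. In the CPM table OPTN averaged 40.1 ± 9.56 CPM in 10Lv and 39.4 ± 9.37 CPM in 8L (SD, n = 6 each), KIF16B 61.3 ± 45.0 CPM in 10Lv and 65.8 ± 26.9 CPM in 8L, and ACAP2 61.9 ± 32.9 CPM in 10Lv and 55.3 ± 18.8 CPM in 8L, each with overlap.

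Most of these genes carry many annotated transcripts, and their summed counts were several times those of 1 transcript, as if a read were counted at more than 1. The 6 transcripts of OPTN gave a summed count 5.71 times that of its largest transcript, so its 62 counts in 8L stood for 11 at the largest one. KIF16B, with 16 transcripts, went to 10 by this measure, KCNMA1 with 50 transcripts had 2 in 10Lv and 1 in 8L, and MTSS1 with 18 transcripts had 1 in 10Lv and 0 in 8L. Of the 826 tested genes 673 (81.5%) have over 1 transcript, with a median summed count 5.80 times the largest transcript count. CGA and FSHB have 1 transcript each, so their own counts are untouched by this. The library totals that scale their levels, and the fit across genes, are not. Largest transcript counts made up 48.1% of all counts over the 54 libraries. On largest transcript counts 210 genes could be tested, none passed, and 11 (5.24%) were under an unadjusted p of 0.05. CGA then ranked first (log2 change 1.22, SE 0.33, edgeR adjusted p = 0.124) and FSHB had an adjusted p of 0.152. Of the 8268 genes tested in the CPM table, 905 (10.9%) had recovered reads in whole multiples of 2 or more in at least 90% of their libraries above 0. Of the genes described below that the named-gene rule picked, CDK13, PRCP and DYNLRB2 came in multiples of 2 and C1QC in multiples of 3. For other genes described below, such as RHOT1 and TOP2B, the multiple is not given.

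In the CPM table no single gene passed the threshold between 10Lv and 8L. Limma called 0 of 8268 genes (0%); unadjusted, 328 (3.97%) had a p under 0.05. All genes together had a median log2 change of -0.024. On the higher side the smallest p belonged to NCEH1. NCEH1, a cholesterol ester hydrolase, had 10.3, 19.5 and 26.2 CPM as the lowest, median and highest of 10Lv and 0, 7.42 and 15.7 CPM in 8L (log2 change of log2(CPM + 1) 1.66, SE 0.46). ULK1, the kinase that starts autophagy, had 9.53 to 22.4 CPM in 10Lv and 0 to 9.33 CPM in 8L, without overlap (log2 change 1.96, SE 0.63). In the count table ULK1 had 3 counts in 10Lv and 15 in 8L, the other way. AFDN, the junction protein afadin, averaged 745 ± 90.5 CPM in 10Lv and 493 ± 120 CPM in 8L (SD, n = 6 each; log2 change 0.54, SE 0.18), also without overlap. MTF1, the metal-responsive transcription factor, averaged 20.0 ± 4.81 CPM in 10Lv and 6.27 ± 6.17 CPM in 8L. CDK13, a kinase of RNA polymerase II, averaged 171 ± 63.1 CPM in 10Lv and 82.2 ± 55.4 CPM in 8L. Some changes leaned on 8L replicate 3, the shallowest library of 8L. Without it the log2 change of CDK13 was 0.73, against 1.83 with it. That of LZIC was 0.58 against 1.46, and that of NCEH1 1.15 against 1.66. For ULK1, AFDN, DIS3L, FBXO38 and B3GAT1L a different library, when left out, gave the lowest change. DIS3L, FBXO38, CPLANE1, LZIC and B3GAT1L had log2 changes from 1.18 to 3.62. Limma's adjusted p was 1.00 for each of these genes.

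On the lower side the 10 genes with the smallest p included SPI1. SPI1, the transcription factor PU.1 of microglia and other myeloid cells, had 0, 1.59 and 7.48 CPM as the lowest, median and highest of 10Lv and 6.98, 10.8 and 22.6 CPM in 8L (log2 change -2.48, SE 0.74). NKX2-2, a transcription factor of oligodendrocyte and ventral neural precursors, had 0 to 12.3 CPM in 10Lv and 12.6 to 29.2 CPM in 8L (log2 change -1.56, SE 0.50). Its groups did not overlap, though the nearest libraries were 12.3 CPM in 10Lv and 12.6 CPM in 8L. MITF, a transcription factor known from pigment and myeloid cells, averaged 29.1 ± 18.7 CPM in 10Lv and 91.4 ± 53.7 CPM in 8L (SD, n = 6 each; log2 change -2.17, SE 0.74). RHOT2, a GTPase of the mitochondrial surface that links mitochondria to motors, averaged 2.19 ± 2.89 CPM in 10Lv and 13.1 ± 6.09 CPM in 8L (log2 change -2.50, SE 0.71). MATN2, a matrix protein, had 0 CPM in every library of 10Lv and 0.78 to 33.7 CPM in 8L. TMEM62, PDLIM1, THOC1, ARIH2 and PRCP had log2 changes from -2.27 to -1.36. Without 10Lv replicate 3, the shallowest library, the log2 change was -1.35 for MITF and -1.05 for NKX2-2. It was then -1.26 for PDLIM1 and -1.10 for PRCP, against -1.85 and -1.59 with that library. For SPI1, RHOT2, MATN2, TMEM62, THOC1 and ARIH2 a different library, when left out, gave the smallest change. None of the 10 passed (limma adjusted p = 1.00 each).

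**Figure D3:**
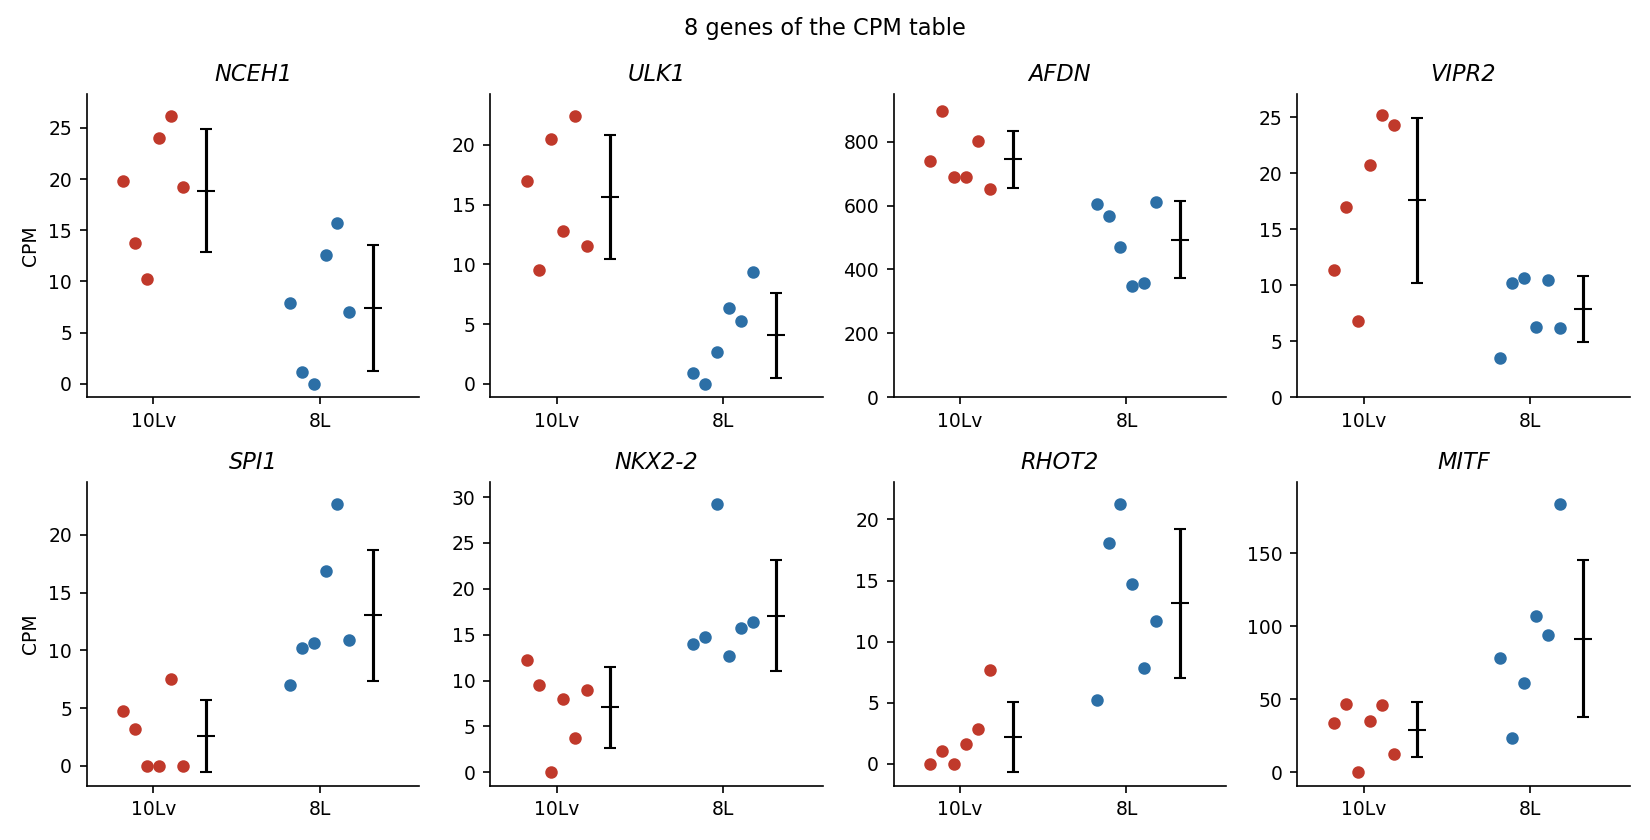
CPM of 8 genes in each bird of 10Lv and of 8L in the CPM table, with the mean and SD beside the points. ULK1 and AFDN lie wholly higher in 10Lv and NKX2-2 wholly lower, the other 5 overlap, and none of the 8 passed the test across 8268 genes.

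Of the 8268 genes, 9 (0.109%) had every library of 10Lv above every library of 8L and 6 (0.0726%) had every library below. Beside ULK1 and AFDN the first set held NDUFAF4, an assembly factor of respiratory complex I, MOB4, XPO1, the main nuclear export receptor, CTTNBP2, RHOT1, EXOC2 and TOP2B, a DNA topoisomerase of neurons. RHOT1 and RHOT2 are paralogs: RHOT1 had 19.2 to 36.5 CPM in 10Lv and 4.21 to 17.4 CPM in 8L (log2 change 1.54, SE 0.87), the opposite direction to RHOT2. Beside NKX2-2 and MATN2 the second set held NFXL1, DDHD2, CCDC86 and LOC121111138. The DDHD2 levels, of a lipase that neurons use, were 1.597 to 12.2 CPM in 10Lv and 13.1 to 18.6 CPM in 8L. Those outside the named-gene rule were chosen after their values were seen. The genes of both sets were picked for full separation, which by itself fixes an exact two-sided permutation p of 0.00216. That p is therefore no test of them. It is also about the share of genes, over both directions, that would separate fully if the groups did not differ. None of these genes passed limma's test across the 8268 genes.

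The genes of the photoperiodic switch did not pass at this step in the CPM table. DIO2 had 0, 5.98 and 23.9 CPM as the lowest, median and highest of 10Lv and 1.74, 4.99 and 6.98 CPM in 8L (exact permutation p = 0.753). In the count table its mean ran the other way, at 34.4 ± 26.9 CPM in 10Lv and 54.4 ± 23.1 CPM in 8L (7 and 14 counts; exact permutation p = 0.247). DIO3 had 1 recovered read in 10Lv and 8 in 8L, in 1 and 4 libraries (exact permutation p = 0.242). THRB, a thyroid hormone receptor, averaged 104 ± 40.4 CPM in 10Lv and 80.6 ± 40.7 CPM in 8L (exact permutation p = 0.422). The count table had THRB the other way, at 63.5 ± 71.4 CPM in 10Lv and 242 ± 191 CPM in 8L (13 and 66 summed counts over 8 transcripts, or 4 and 10 at the largest one; exact permutation p = 0.264). THRB had 2 recovered reads in 8L replicate 3 of the CPM table, and without it the limma log2 change was -0.016, against 0.63 with it. TSHR, the thyrotropin receptor, had 5 recovered reads in 10Lv and 7 in 8L. TTR, which carries thyroid hormone in the cerebrospinal fluid, had 3366 CPM in 10Lv replicate 6 and at most 0.94 CPM in the other 5 libraries of 10Lv, against 0 to 5.24 CPM in 8L. With TTR, also a marker of the choroid plexus, set aside, 3 of 3 tested members of the switch list (THRB, CRYM and DIO2) were positive in the CPM table, where 3913 of all 8268 genes were, and 0 were called. The sign of DIO2 turned without 10Lv replicate 3 (log2 change -0.27, against 0.16 with it).

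Of the 46 genes of interest in the CPM table, 31 of them hypothalamic peptides and receptors of reproduction and energy balance, 1 (2.174%) had an exact permutation p under 0.05, where 3.97% of all 8268 genes had an unadjusted limma p under 0.05. That gene was VIPR2 (unadjusted exact p = 0.0152). VIPR2, the VPAC2 receptor of vasoactive intestinal peptide, had 6.84, 18.9 and 25.2 CPM as the lowest, median and highest of 10Lv and 3.49, 8.24 and 10.6 CPM in 8L. The groups overlapped through 10Lv replicate 3, the shallowest library. In the limma fit its log2 change was 0.95 (SE 0.59, adjusted p = 1.00), and over the cycle the mean was 12.4 ± 6.40 CPM in 12Lv and 11.9 ± 8.55 CPM in 10La. VIP itself averaged 56.0 ± 14.9 CPM in 10Lv and 46.6 ± 16.5 CPM in 8L (exact permutation p = 0.288). NPVF, which encodes gonadotropin-inhibitory hormone, averaged 69.4 ± 22.3 CPM in 10Lv and 76.8 ± 24.4 CPM in 8L (p = 0.565 by the same exact test). GNRH1, the precursor of gonadotropin-releasing hormone, had 2 recovered reads in each group. NPY, a peptide of feeding, averaged 166 ± 42.7 CPM in 10Lv and 167 ± 43.1 CPM in 8L, and AGRP, its partner in arcuate neurons, 5.36 ± 2.88 CPM in 10Lv and 9.61 ± 9.64 CPM in 8L. PMCH, the precursor of melanin-concentrating hormone, had 9.35 to 34.2 CPM in 10Lv and 0 to 26.2 CPM in 8L (log2 change 1.21, SE 0.57, unadjusted limma p = 0.0393; exact permutation p = 0.199). Without 8L replicate 3 the log2 change of PMCH was 0.62. TRH averaged 13.2 ± 10.9 CPM in 10Lv and 6.66 ± 6.88 CPM in 8L, and GHRH 3.54 ± 4.75 CPM in 10Lv and 8.35 ± 5.28 CPM in 8L.

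By cell type, markers of ependymal cells, the ciliated lining of the ventricles, summed higher in 10Lv. Their 8 detected genes summed to 81.5, 85.6 and 102.6 CPM as the lowest, median and highest of 10Lv and to 41.9, 49.8 and 63.7 CPM in 8L. The groups did not overlap, which was so for 1 of 31 lists in the CPM table and for 0 of 31 in the count table. The 4 members that could be tested were all positive and none was called: SPAG6 of the ciliary axoneme (log2 change 1.58, SE 0.87), RSPH1 of the radial spoke (0.61, SE 0.45), PIFO (0.57, SE 0.38) and the dynein light chain DYNLRB2 (0.45, SE 0.28), with the smallest unadjusted limma p at 0.0756. DYNLRB2 contributed 27.4 to 55.1 CPM in 10Lv and 19.2 to 39.97 CPM in 8L. Without it the sums overlapped, at 33.9 to 75.2 CPM in 10Lv and 15.8 to 37.2 CPM in 8L, and without any other single member they did not. FOXJ1, the master regulator of motile cilia, was at 0 to 4.79 CPM in 10Lv and 0 to 2.66 CPM in 8L. Over the cycle the list averaged 72.8 ± 18.03 CPM in 10La, 51.97 ± 9.43 CPM in 8L, 89.3 ± 9.22 CPM in 10Lv and 60.8 ± 17.1 CPM in 12Lv (SD, n = 6 each). The 3 members with a count in the count table summed to 0 to 75.7 CPM in 10Lv and 0 to 413 CPM in 8L. The sums were compared after the values were seen and carry no test.

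Markers of microglia and macrophages ran the other way. Their 11 detected genes summed to 17.1, 40.1 and 48.7 CPM as the lowest, median and highest of 10Lv and to 46.2, 58.4 and 69.7 CPM in 8L, so the groups met between 46.2 and 48.7 CPM. All 5 tested members were negative (median log2 change -0.56), none was called, and SPI1 alone had an unadjusted p under 0.05. C1QC averaged 8.87 ± 6.92 CPM in 10Lv and 13.9 ± 7.03 CPM in 8L. Without 10Lv replicate 3 its log2 change was -0.48, against -1.03 with it. CD74 had 6.36 to 16.04 CPM in 10Lv and 5.24 to 21.2 CPM in 8L, and CSF1R averaged 6.50 ± 5.33 CPM in 10Lv and 7.75 ± 4.59 CPM in 8L. The lowest sum of 10Lv was that of replicate 3, the shallowest library. Over the cycle the list averaged 50.6 ± 21.5 CPM in 10La, 58.0 ± 7.79 CPM in 8L, 37.3 ± 10.9 CPM in 10Lv and 35.4 ± 21.4 CPM in 12Lv. Group means ran from 29.5 CPM in 16La to 67.4 CPM in 14Lv. In the count table its 4 members with a count averaged 128 ± 159 CPM in 10Lv and 140 ± 124 CPM in 8L. The part that a different number of microglia has in the SPI1 levels was not tested. Markers of neurons (15 tested, 10 positive, median log2 change 0.022), astrocytes and tanycytes (13 tested, 9 positive, 0.018) and oligodendrocytes (10 tested, 4 positive, -0.11) lay near the median of all genes.

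**Figure D4:**
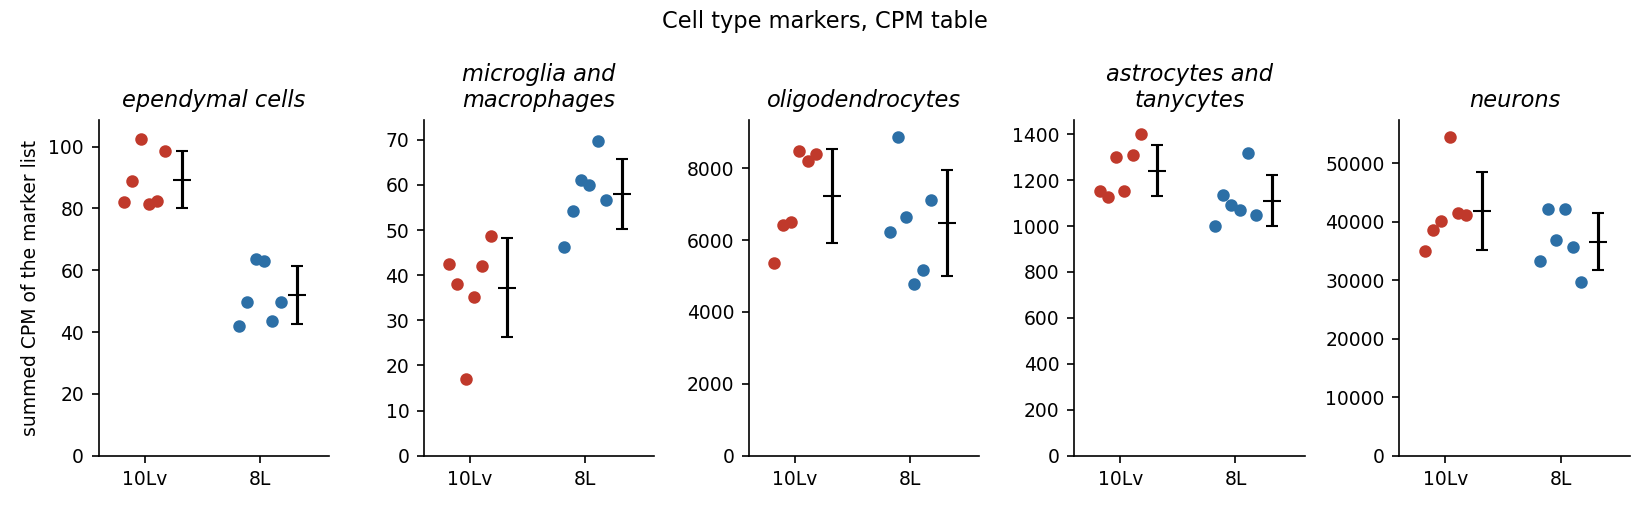
Summed CPM of 5 cell type marker lists in each bird of 10Lv and of 8L in the CPM table, with the mean and SD beside the points. The ependymal sums of 10Lv (81.5 to 102.6 CPM) lie above those of 8L (41.9 to 63.7 CPM), though not once DYNLRB2 is left out, the microglia and macrophage sums are mostly lower in 10Lv, and the other 3 lists overlap widely.

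The remaining gene lists of the CPM table held no called gene. Heat shock and glucocorticoid response genes were positive in 12 of 17 tested members (median log2 change 0.25), where 3913 of all 8268 genes were positive. The chaperone HSP90B1 of the endoplasmic reticulum averaged 59.6 ± 7.99 CPM in 10Lv and 44.1 ± 5.99 CPM in 8L (log2 change 0.34, SE 0.15), and its cytosolic relative HSP90AA1 932 ± 136 CPM in 10Lv and 732 ± 71.0 CPM in 8L (0.26, SE 0.12); these were the list's 2 members with an unadjusted p under 0.05. Circadian clock genes were positive in 9 of 13 (median 0.25), with PER2 at 0.69 (SE 0.53) and CRY1 at 0.41 (SE 0.30), repressors of the clock loop. PER2 had 1 read in 8L replicate 3, and without that library its log2 change was -0.075. Synaptic vesicle genes (12 of 26 positive, median -0.013), glutamate and GABA receptors (11 of 25, -0.021), cytosolic ribosomal proteins (24 of 70, -0.039) and nuclear genes of oxidative phosphorylation (23 of 55, -0.038) were close to the median of all genes. LRP6, a co-receptor of WNT, led the list of tanycyte matrix and signalling genes (log2 change 1.79, SE 0.61, unadjusted p = 0.00518), at 8.75 ± 4.0 CPM in 10Lv and 2.79 ± 3.49 CPM in 8L. SDHA, a subunit of respiratory complex II, averaged 105 ± 9.65 CPM in 10Lv and 78.7 ± 20.1 CPM in 8L (log2 change 0.38, SE 0.16). Without 8L replicate 3 the log2 change of SDHA was 0.20. The other member named from the oxidative phosphorylation list, NDUFB4, had a log2 change of -0.21. Among receptors, GABRA2 of the GABA-A receptor averaged 79.6 ± 18.5 CPM in 10Lv and 50.97 ± 11.5 CPM in 8L, and GRIA3 of the AMPA receptor 535 ± 138 CPM in 10Lv and 985 ± 401 CPM in 8L; neither was called.

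Of all genes of the CPM table, KIFC2, a kinesin motor, was called when 10 h of light was compared between the arms. It averaged 32.9 ± 13.3 CPM in 10Lv and 14.8 ± 10.3 CPM in 8L (SD, n = 6 each; log2 change 1.47, SE 0.68; not called), and 1.42 ± 3.01 CPM in 10La. Without 8L replicate 3 the log2 change of KIFC2 against 8L was 0.78. Levels averaged 9.39 to 32.9 CPM in the groups other than 10La. The log2 change for 10Lv minus 10La was 4.24 (SE 0.68, limma adjusted p = 0.000891), for 1 of 8268 genes (0.0121%). Whether the step to 10Lv differed from the step to 12Lv was also tested, and limma called 0 of 8268 genes (0%); unadjusted, 381 had a p under 0.05. DESeq2 on the recovered reads called 3.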

How the data were processed

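The authors deposited 2 tables with 1 column per bird. One holds CPM values, scaled by the authors to 1 total in every library; 14 features named by a date were dropped, which left 19916 genes. Its low values step by the worth of 1 read, and 99.8% or more of the values in each of the 12 libraries came out whole within 0.1 read, which gave the recovered reads. The other holds estimated counts per transcript deposited by the authors, not normalised, for 40282 transcripts of 16448 genes. Per the submitters' processing notes, minimap2 2.17, Salmon 0.14.2 and edgeR 3.24.3 were used. Their order and the genome build were not given in the sources used here, so coordinates are left out.

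Counts were summed per gene, rounded and tested with edgeR 4.0.16 (quasi-likelihood F test, TMM, filterByExpr minimum count 10, 826 genes, 54 libraries). CPM values were tested with limma 3.58.1 (trend) on log2 of TMM-scaled CPM plus 1, for the 8268 genes at 10 CPM or more in 6 or more libraries; replicates 3 and 6 of 16Lv agreed within sampling noise and counted as 1 sample, which left 53. A single model per table held the 9 groups and nothing else. Calls were made at an adjusted p (Benjamini-Hochberg) below 0.05. Levels in the text are CPM of the library total. Genes of 4 hormone, thyroid, reproductive and energy balance lists with a count in the 12 libraries were tested with exact two-sided permutation tests (pseudocount 1), unadjusted. Named are all called genes, filled to 10 per direction by p, the genes of those lists, and the 2 members with the smallest p of each other list. List members that the text leaves out did not pass for 10Lv minus 8L, and 1 gene filled in by p is not reported here. The comparison, lists, tests and named-gene rule were chosen with earlier results of these data known. DESeq2 1.42.0 and limma-voom were alternatives. Both kinds of fit were run on simulated data (R 4.3.3), for the count table simulated from largest transcript counts and not from summed ones. That simulation is therefore no check of the edgeR fit to summed counts. The labels do not say that libraries came from separate extractions, and p-values measure the spread between these birds' libraries. SEs of limma's log2 changes come from its fit. The edgeR test gives no SE, so SEs and intervals of its log2 changes were derived from the log2 change and the F statistic. They hold the spread between the birds' libraries. A log2 change against a group at 0 counts varied with the settings, for OPTN from -6.94 to -3.49 over 20 alternatives. Limits for a count of 0 cover counting error only.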

Additional observations from a re-analysis of the deposited data

Results flagged for a closer look

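In 54 sets of 6 libraries checked, 7 held 1 library far from the others; chance gives about 1 in 20 sets for normally distributed values, and that rate need not hold for sparse counts such as these. In the count table these were CGA in 8L, where replicate 4 had 2070 CPM and the next library 1457 CPM, and ACAP2 in 10Lv, where replicate 3 had 28.6 CPM, which is 1 count, and the other 5 libraries 0. In the CPM table RHOT2 in 10Lv had 7.68 CPM in replicate 6 and 2.81 CPM in the next library. TTR in 10Lv had 3366 CPM in replicate 6 and 0.935 CPM in the next library. TRH in 8L had 20.0 CPM in replicate 4 and 7.97 CPM in the next library, AVP in 8L had 1718 CPM in replicate 3 and 406 CPM in the next, and NKX2-2 in 8L had 29.2 CPM in replicate 3 and 16.3 CPM in the next. The 7 are no full list of such libraries for the genes described. In the count table KCNMA1 had 50 of its 52 counts of 10Lv in replicate 4, and MTSS1 all 18 in replicate 6. Neither is among the 7.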

How the results depend on the processing

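For 10Lv minus 8L in the count table, where edgeR called 1 gene, DESeq2 called 3 (CGA, FSHB and OPTN), the fit with no filter 6, and 0 were called with limma-voom, limma-trend, a minimum count of 5 or only the 10Lv and 8L libraries. It was also 0 under 3 alternatives chosen after seeing the data: without replicate 5 of both groups, with the largest transcript count per gene, and with that count and only the 10Lv and 8L libraries. Leaving out 1 library gave 0 to 2 calls. For 10Lv minus 10La, DESeq2 and the largest transcript count each called 1 gene, against 0. In the CPM table, with 0 called, the fit with no filter called 1 (LOC100857475), edgeR on the recovered reads 1 (TTR, from 10Lv replicate 6) and DESeq2 1 (BG-like antigen 1). DESeq2 called 3 genes whose step differed from the next, against 0. Permutation calls were 1 to 2 in each table when 1 library was left out.

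Small changes flipped sign. The log2 change of CHGA was 0.019 without replicate 5 of both groups and -0.23 to 0.21 without single libraries, that of POU1F1 0.088 with limma-voom and -0.46 to 0.036 without single libraries, and that of POMC -0.35 to 0.18; the cause was not tested. The change of MTSS1 was 0 without 10Lv replicate 6 and up to 6.10 in the other alternatives. Over the alternatives of all genes followed, 907 values kept direction and side of the threshold, 13 lost the call (all FSHB), 6 gained one, 15 flipped and 1 went to 0. The mean ependymal sum was higher in 10Lv by 37.4 CPM, and by 25.5 CPM with DYNLRB2 left out and 25.8 CPM with SPAG6 left out, lists chosen after seeing the data. Over its 14 alternatives the exact permutation p of CGA was 0.00216 to 0.00433, and that of VIPR2 0.00216 to 0.0346. No paired analysis was made, because the birds' numbers in the labels are not shared between groups. A block on the order of the samples, which no label ties to a batch, could have been fitted and was not. Any difference between positions in that order is therefore part of the spreads given. With 167492 counts in 10Lv and 247636 in 8L, a gene under 17.9 CPM in 10Lv or 12.1 CPM in 8L could go without a count.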
